A study of Mus musculus with 223 samples.

Results

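Ap1s2, AI593442, Azin1 and Mtpn are 4 of the 43629 annotated genes counted here, and the cells are single Htr3a-GFP+ cells sorted from mouse cortex. They were selected from these data. Among the 972 genes above 10 RPM (read pairs per 1000000 mapped read pairs of the cell) in at least 50% of type 2 cells at both P2 and P5, genes were ordered by the smaller of their folds over types 1 and 3 at the 2 ages. Cnr1 came first with a smaller log2 fold of 2.41, and the 4 genes took places 2 to 5 with 2.33, 2.15, 2.13 and 2.10. The genes just outside were Mef2c at 1.92, Sema6a at 1.77 and Gas7 at 1.68. The median over the 972 genes was -0.06. The difference between type 2 and the other types at P2 and P5 is therefore a description of how the 4 genes were picked and is given without a test.

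The study asked how diverse these interneurons (INs) already are while they settle in the cortex. Cortices came from mice of both sexes on a C57BL/6 background that carry eGFP under Htr3a regulatory sequences, a transgene that labels mainly INs of the caudal ganglionic eminence. GFP+ cells were sorted at embryonic day 18 (E18) and at postnatal days 2 and 5 (P2, P5), caught singly on microfluidic chips and sequenced as read pairs. The data hold 82 cells at E18, which the authors did not divide into types, 22, 31 and 13 cells of types 1, 2 and 3 at P2, and 34, 19 and 22 at P5. Embryos or pups of an age were pooled before sorting and no label names the animal of a cell. Each age is thus 1 sample, cells are not replicates, and no p-value was computed. P5 cortices were dissected in another medium and dissociated at another temperature than E18 and P2 cortices. The label of each cell holds a number and an SF label, and the meaning of neither is stated. The numbers are called library sets A to D here, and the SF labels library pools. All P2 cells carry set A, which no other cell carries, so these differences and age cannot be told apart. The types were drawn by the authors from these same counts.

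In the background knowledge of the field, the protein of each named gene but 1 has a clear place in the cell. Ap1s2 encodes a small (sigma) subunit of AP-1, an adaptor complex that links clathrin to cargo at the trans-Golgi network and endosomes and so sorts membrane proteins into vesicles. Azin1, antizyme inhibitor 1, resembles ornithine decarboxylase without its enzyme activity. It binds antizyme, the protein that sends ornithine decarboxylase to the proteasome, and thereby spares the enzyme and polyamine synthesis. Mtpn encodes myotrophin (V-1), a small ankyrin repeat protein that binds the actin capping protein and keeps it from closing the growing ends of actin filaments. AI593442 is annotated as protein coding, and no function is given for it here. Vesicle sorting and actin turnover both serve the growth of axons and dendrites.

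The genes lie on 4 chromosomes of GRCm38. Ap1s2 (ENSMUSG00000031367) is at chrX:163909017-163933666 on the plus strand and spans 24650 bases. AI593442 (ENSMUSG00000078307) is at chr9:52673042-52679780 on the minus strand and spans 6739 bases. Azin1 (ENSMUSG00000037458) is at chr15:38487427-38519266 on the minus strand. Mtpn (ENSMUSG00000029840) is at chr6:35508906-35539888 on the minus strand. The antisense gene Gm49077 shares 358 exon bases with Azin1 on the opposite strand. Whether counting used strand is not stated in the sources used here, so read pairs of the 2 genes cannot be told apart over those bases. No exon of another annotated gene overlaps the exons of the other members, whereas 1 miRNA gene lies inside an intron of Azin1 (Mir6951) and 1 inside an intron of Mtpn (Gm23053).

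The stretches before the start sites of Ap1s2, AI593442 and Mtpn are shown since the 4 genes were chosen for a shared pattern, and they let their start regions be compared. They are from RefSeq (GRCm38.p6), run 5′ to 3′ on the gene's own strand and end at the base before the RefSeq start. For AI593442 this start and the stretch shown lie inside the GENCODE gene span given above, so the 2 annotations place its start differently. By GENCODE the stretch is within the gene, so its comparison with the other stretches holds for the RefSeq start only. Ap1s2 is at chrX:163908767-163909016 (plus strand), AI593442 at chr9:52679438-52679582 (minus strand, kept to the 145 bases that lie in no annotated exon of the gene) and Mtpn at chr6:35539889-35540138 (minus strand). Capitals mark matches on either strand to the CCAAT box (CCAAT), the core of the TATA box (TATAAA), the GC box (GGGCGG), the E-box (CACGTG) and the cAMP response element (TGACGTCA).
Ap1s2: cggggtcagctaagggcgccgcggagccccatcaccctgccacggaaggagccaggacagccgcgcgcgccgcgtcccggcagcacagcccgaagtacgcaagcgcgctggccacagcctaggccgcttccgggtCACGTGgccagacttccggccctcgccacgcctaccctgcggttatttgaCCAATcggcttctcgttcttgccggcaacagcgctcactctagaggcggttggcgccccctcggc
AI593442: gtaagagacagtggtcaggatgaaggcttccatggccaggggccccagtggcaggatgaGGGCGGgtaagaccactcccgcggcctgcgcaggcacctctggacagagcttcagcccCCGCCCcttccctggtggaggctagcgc
Mtpn: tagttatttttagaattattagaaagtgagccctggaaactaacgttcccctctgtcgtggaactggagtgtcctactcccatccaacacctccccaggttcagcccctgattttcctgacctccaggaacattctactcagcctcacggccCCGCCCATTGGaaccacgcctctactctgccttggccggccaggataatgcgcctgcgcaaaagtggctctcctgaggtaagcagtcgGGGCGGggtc

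The matches differed between the 3 stretches. Ap1s2 holds CCAAT at -65 and CACGTG at -115, counted from the start site. AI593442 holds GGGCGG at -86 and, on the other strand, at -28. Mtpn holds GGGCGG at -98 on the other strand and at -10, with CCAAT on the other strand at -92, directly after the first of these. No motif was found in all 3. TATAAA and TGACGTCA were found in none of the 3 windows of 300 bases, which run 250 bases before and 50 after the start. Of all 32851 RefSeq windows of that length, 37.4% hold CCAAT, 35.7% GGGCGG, 13.6% TATAAA, 7.15% CACGTG and 1.79% TGACGTCA. The Ap1s2 window holds 39 CpG dinucleotides, more than 95.6% of the windows, whereas those of AI593442 and Mtpn hold 12 each, against a median of 7. A match is a description of letters and not a binding site.

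Depth and gene detection differed between the types. Mapped read pairs per cell ranged from 3707601 to 15840130 (median 9463033), with lower medians in type 3 (6483871 at P2 and 7879973 at P5) than in type 2 (9750219 and 9114966), and counts on genes from 1596087 to 11692823. The median number of genes above 10 RPM was 2482 in P2 type 2 cells against 1834 and 1437 in types 1 and 3, and 2738 against 2258 and 2101.5 at P5. E18 cells stood at 2495.5. The share of mapped pairs that fell on genes was 45.1% in type 3 at P2 and 34.1% at P5, against 53.8% and 60.8% in type 2. The median fold of all tested genes between type 2 and types 1 and 3 was 0.19 (log2) at P2 and 0.03 at P5, and with total counts on genes as library size it was 0.05 and -0.29. The part of detection and library size in the differences of the 4 genes was not tested beyond the values given here.

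Transcripts of other cell types were found in some cells of each group. At least 2 of 7 interneuron markers (Gad1, Gad2, Dlx1, Dlx2, Dlx5, Dlx6 and Slc32a1) were above 10 RPM in 24 of 31 type 2 cells at P2 and in 18 of 19 at P5. In 3 of the P5 type 2 cells, 2 or more of the 5 astrocyte markers Gfap, Aldoc, Aqp4, Slc1a3 and Aldh1l1 were above 10 RPM, with summed levels of 175.2, 7541 and 13331 RPM, while the median cell stood at 1.34 RPM. Another cell held 4 of 5 oligodendrocyte lineage markers (Olig1, Olig2, Pdgfra and Sox10) at 3016 RPM and 1 more held 2 excitatory neuron markers at 156.5 RPM. In P2 type 2 cells, Slc1a3 was above 10 RPM in 2 of 31 cells, with a summed astrocyte level of up to 116.3 RPM. Gfap, Aldoc, Aqp4 and Aldh1l1 and all 5 oligodendrocyte lineage markers were above 10 RPM in no cell there. No P2 type 2 cell held 2 of 6 excitatory markers, although the summed excitatory level reached 986.9 RPM in 1 cell. At E18, 12 of 82 cells held 2 or more excitatory markers, up to 1739 RPM. Values of type 2 at P5 and of E18 without the cells that held 2 or more markers of 1 class are given below.

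Ap1s2 had its highest level in type 2 cells at both ages. In P2 type 2 cells it ranged from 0 to 1480 RPM with a median of 15.8, and in P5 type 2 cells from 0 to 1713 RPM with a median of 110.5. In E18 cells it ranged from 0 to 708.6 RPM, and the median cell held none. Type 1 cells reached 482.4 RPM at P2 and 535.0 at P5, and type 3 cells 616.3 and 460.0, but the medians of these 4 groups lay between 0.093 and 0.446 RPM. All groups thus overlapped. Type 2 had more cells with the transcript, and among cells above 10 RPM its median was 215.5 RPM at P2 against 25.8 in type 1 and 612.9 in the 3 such cells of type 3, and 267.2 RPM at P5 against 44.1 and 193.4. At P2, 17 of 31 type 2 cells passed 10 RPM (54.8%, exact 95% binomial interval 36 to 72.7%), and so did 8 of 35 cells of types 1 and 3 (22.9%, 10.4 to 40.1%). At P5 the transcript passed that level in 14 of 19 type 2 cells (73.7%, 48.8 to 90.9%), and 18 of 56 cells of types 1 and 3 did so (32.1%, 20.3 to 46%).

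Summed over cells, Ap1s2 stood at 235.8 RPM in type 2 at P2 (exact 95% Poisson interval 234.1 to 237.6) and at 304.8 RPM at P5 (302.3 to 307.3). These intervals, like those of shares, cover counting error only, since PCR copies of a transcript are not independent molecules. The remaining groups followed at 71 (P2 type 3), 67.4 (P5 type 3), 53.9 (E18), 41.1 (P5 type 1) and 36.5 RPM (P2 type 1). Their order rests on few cells, since 61.2% of the count of P2 type 1 came from 1 cell, without which it was 14.9 RPM. The log2 fold of type 2 over types 1 and 3 was 2.33 at P2 and 2.59 at P5. The 4 genes were chosen to be at least 2-fold higher, as were 28.1% of 8400 genes tested at P2, 23.5% of 9675 at P5 and 8.06% of 7739 at both ages. At least 2-fold lower in type 2 were 19.9%, 21.8% and 4.86%. Without the 5 P5 type 2 cells with markers of other classes, Ap1s2 was above 10 RPM in 12 of 14 cells, with a median of 242.4 RPM and a fold of 2.94.

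AI593442 was present in most type 2 cells at P2. There it ranged from 0 to 1326 RPM with a median of 118.5, and 24 of 31 cells (77.4%, 58.9 to 90.4%) were above 10 RPM. In types 1 and 3 at P2 it was above 10 RPM in 9 of 35 cells (25.7%, 12.5 to 43.3%) and the median cell of each type held none, although 1 type 1 cell reached 1140 RPM and carried 57.9% of the count of its group. The log2 fold was 2.15, and 3.14 without that cell. At P5 the gene stood at 176.5 RPM in type 2 (174.6 to 178.4), 67.3 in type 3 and 7.43 in type 1.

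At P5 AI593442 separated type 1 from the other types rather than type 2 from both. It was above 10 RPM in 13 of 19 type 2 cells (68.4%, 43.4 to 87.4%) and in 15 of 22 type 3 cells (68.2%, 45.1 to 86.1%), but in 4 of 34 type 1 cells (11.8%, 3.30 to 27.5%). The medians over cells were 40.5, 24.9 and 0 RPM. Its log2 fold over type 1 was 4.4 and over type 3 only 1.38, and 1 type 2 cell with 1193 RPM carried 32.7% of the type 2 count. Without the 5 type 2 cells with markers of other classes, 11 of 14 cells were above 10 RPM, the median was 41.3 RPM and the fold over types 1 and 3 was 2.89 in place of 2.64. The share of cells above 10 RPM was highest in type 2 for each of the 4 genes at both ages, a result that the choice by level and share in type 2 favours. With a threshold of 1 RPM, AI593442 at P5 was instead found in more type 3 cells (77.3%) than type 2 cells (68.4%). The share at 10 RPM was highest in type 2 for 55.1% of all tested genes at P2 and 50.2% at P5.

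Azin1 had its highest level in P5 type 2 cells. It stood at 456.2 RPM there (453.2 to 459.3) and at 185.3 RPM in P2 type 2 (183.8 to 186.8), with ranges over cells of 0 to 1478 and 0 to 1492 RPM and medians of 149.0 and 21.5. E18 cells followed at 162.2 RPM, with a median of 44.7 and a highest cell of 1497 RPM. P5 type 1 stood at 137.2 RPM, and P2 type 3, P2 type 1 and P5 type 3 lay between 36.9 and 42.7 RPM. The P2 type 3 value came from 1 cell with 929.2 RPM, which held 96.7% of the count, and fell to 1.47 RPM without it. Azin1 was above 10 RPM in 17 of 31 type 2 cells at P2 and 14 of 19 at P5, against 6 of 35 (17.1%, 6.56 to 33.6%) and 19 of 56 (33.9%, 21.8 to 47.8%) cells of types 1 and 3. The log2 folds were 2.17 and 2.13. Since P5 type 1 cells also expressed the gene (14 of 34 above 10 RPM, up to 1436 RPM), the P5 fold was 1.73 over type 1 and 3.59 over type 3. Without the 5 type 2 cells with markers of other classes, 11 of 14 P5 type 2 cells were above 10 RPM, with a median of 234.7 RPM and a fold of 2.26.

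Mtpn had its highest level in P2 type 2 cells, where 1 cell stood far above the others. In P2 type 2 cells it ranged from 0 to 4102 RPM, with a median of 52.3 and a pooled level of 367.7 RPM (365.5 to 369.8). The cell at 4102 RPM held 36.3% of the count, and the pooled level was 242.2 RPM without it. In P5 type 2 cells Mtpn ranged from 0 to 858.1 RPM with a median of 143.8 and a pooled level of 261.5 RPM. E18 cells, of which 53 of 82 (64.6%, 53.3 to 74.9%) were above 10 RPM, stood at 140.6 RPM with a median of 39.7. P2 type 3 cells had almost none. Their pooled level was 1.75 RPM (1.48 to 2.06), from 146 read pairs in 13 cells, and 1 cell passed 10 RPM, at 10.4. Mtpn was above 10 RPM in 18 of 31 type 2 cells at P2 against 9 of 35 cells of types 1 and 3, and in 13 of 19 against 17 of 56 at P5. The log2 folds were 2.59 and 2.10, and 1.99 at P2 without the highest type 2 cell. Without the 5 cells with markers of other classes, the P5 type 2 median was 320.0 RPM, with 11 of 14 cells above 10 RPM and a fold of 2.40.

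**Figure D1:**
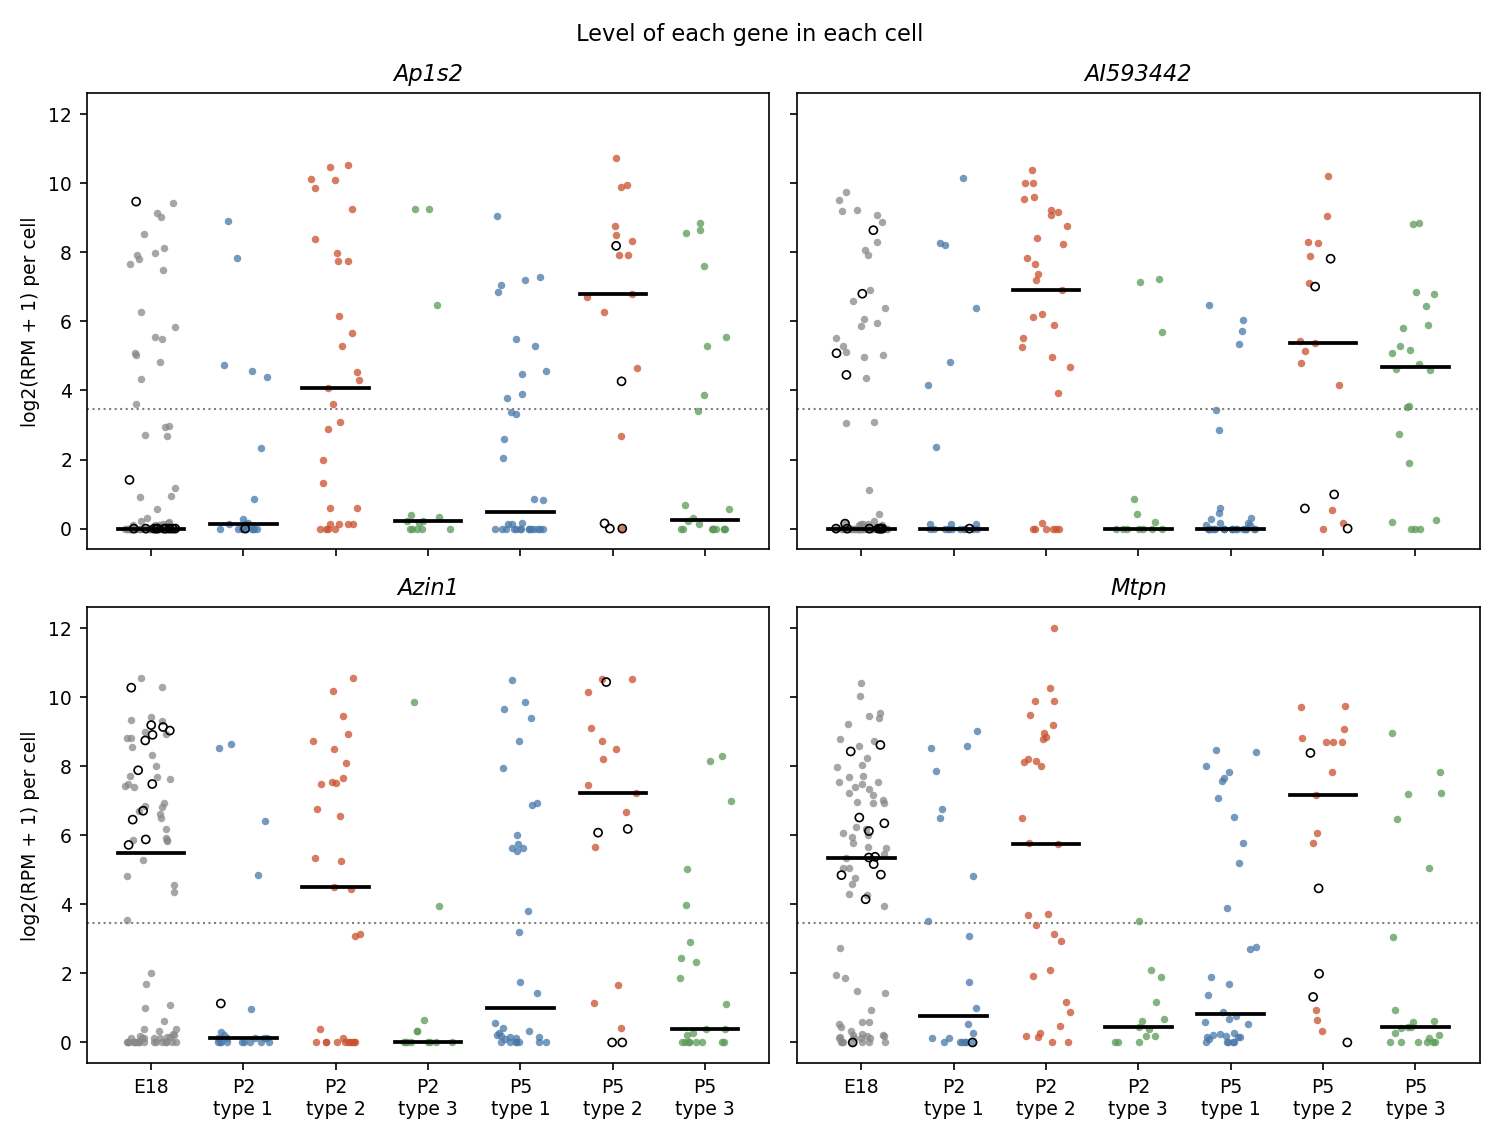
Level of Ap1s2, AI593442, Azin1 and Mtpn in each cell as log2(RPM + 1), by age and type. Each point is 1 cell, the bar is the median, the dotted line marks 10 RPM, and open circles are cells above 10 RPM for 2 or more markers of astrocytes, the oligodendrocyte lineage or excitatory neurons. Most cells lie either near 0 or well above the line, every group reaches down to 0, and type 2 medians lie above the line at both ages.

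**Figure D2:**
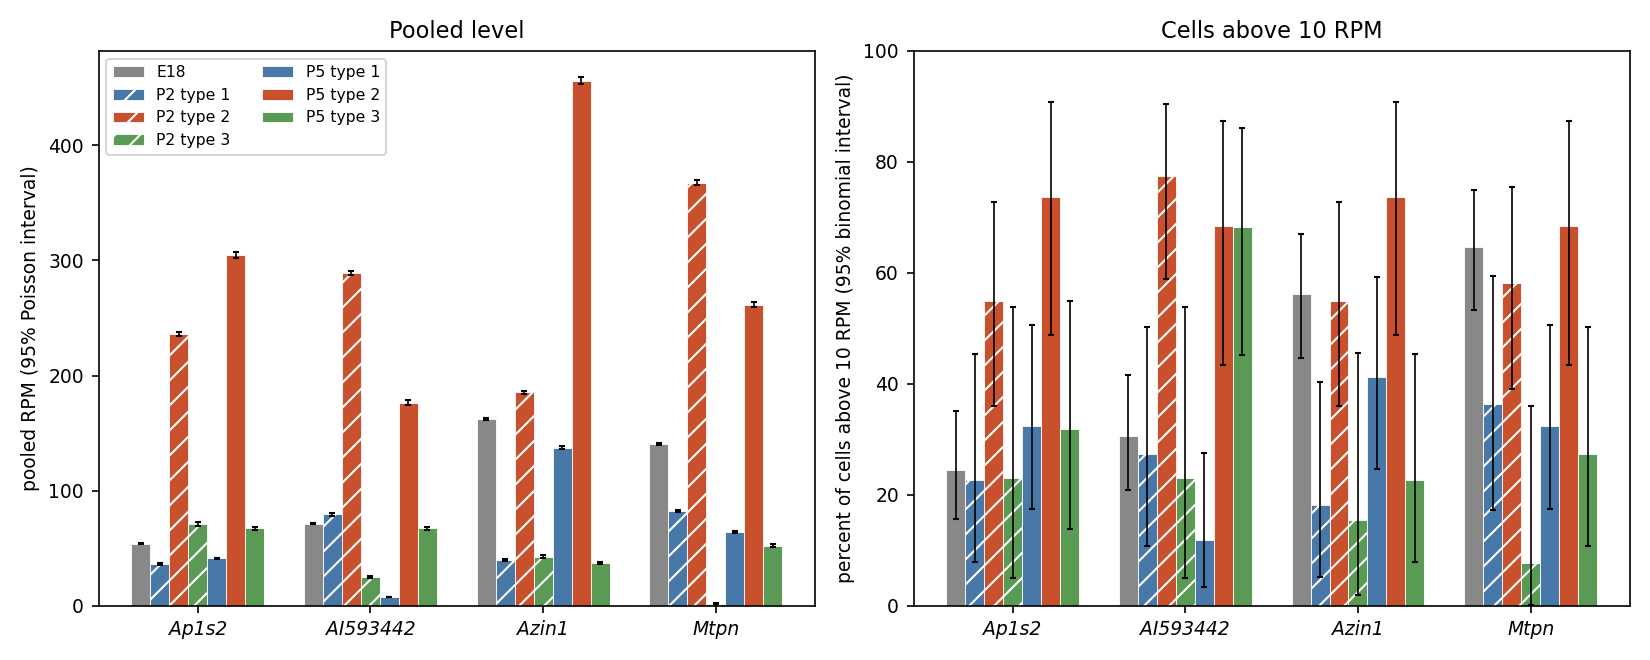
Pooled level (left, RPM with exact 95% Poisson interval) and percent of cells above 10 RPM (right, with exact 95% binomial interval) of the 4 genes. Gray is E18, blue, red and green are types 1, 2 and 3, and hatched bars are P2. Type 2 has the highest bar at each postnatal age, while type 3 at P5 comes next to it in the share of AI593442 (68.2 against 68.4%).

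Compared per kilobase of exon, which allows levels of different genes to be set side by side, the order within type 2 differed between the ages. At P2 Mtpn led with 92.9 RPM per kilobase, followed by AI593442 at 49.7, Ap1s2 at 47.5 and Azin1 at 29.6. At P5 Azin1 led with 72.9, followed by Mtpn at 66, Ap1s2 at 61.4 and AI593442 at 30.3. AI593442 and Ap1s2 at P2 were thus close, as were Mtpn and Ap1s2 at P5. Without its highest cell, Azin1 at P5 stood at 61.3, under the level of Mtpn over all cells. Single cells moved these levels by more than such gaps, and no spread over animals is known.

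E18 cells were not used to choose the genes, and they give the level before the types were told apart. Ap1s2 was higher in type 2 cells than in E18 cells by a log2 fold of 2.11 at P2 and 2.48 at P5. AI593442 was higher by 2.00 and 1.29. Azin1 differed by 0.19 at P2 and 1.49 at P5, and Mtpn by 1.38 and 0.89. Thus 3 of 4 genes at each age were at least 2-fold above E18, against 13.4% of 9660 genes tested at P2 and 15.7% of 9468 at P5. The median fold over E18 of all tested genes was -0.24 and -0.21 (with total counts on genes, -0.11 and -0.25). Each count fell to 2 of 4 when the highest type 2 cell of each gene was left out, since Mtpn at P2 was then at 0.78 and AI593442 at P5 at 0.80. High level in type 2 had entered the choice of the genes, so the count against this background carries that choice. The P2 value of Azin1 was 0.32 without the highest E18 cell and -0.11 without the highest type 2 cell, and is not a difference beyond single cells.

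Types 1 and 3 were compared with E18 in the same way. For Ap1s2 their log2 folds over E18 ranged from -0.55 in P2 type 1 to 0.39 in P2 type 3. Without the highest cell of each type they were -1.79 and -0.24 at P2 for types 1 and 3 and -1.08 and -0.16 at P5. Azin1 was lower than at E18 in types 1 and 3 at P2 (-2.0 and -1.90) and in type 3 at P5 (-2.11), and stood at -0.24 in type 1 at P5 (-0.74 without the highest cell). Mtpn was lower in all 4 groups, from -0.76 in P2 type 1 to -5.69 in P2 type 3. AI593442 was lower in P5 type 1 by a log2 fold of -3.10 and in P2 type 3 by -1.48, and stood at 0.15 in P2 type 1 and -0.08 in P5 type 3. The P2 type 1 value was -1.02 without the 1 cell that held 57.9% of its count. For Azin1 at P2, the gap between the types thus lay in lower levels in types 1 and 3, with type 2 close to E18.

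The share of E18 cells above 10 RPM differed between the genes. Azin1 was above 10 RPM in 46 of 82 E18 cells (56.1%, 44.7 to 67%), close to the 54.8% of P2 type 2, and Mtpn in 64.6% against 58.1%. Ap1s2 was above 10 RPM in 20 of 82 E18 cells (24.4%, 15.6 to 35.1%), close to the 22.9% of types 1 and 3 at P2, and AI593442 in 25 of 82 (30.5%, 20.8 to 41.6%). Without the 12 E18 cells with excitatory markers, Azin1 was above 10 RPM in 34 of 70 cells and its E18 level was 124.5 RPM in place of 162.2. All 12 of those cells held Azin1 above 10 RPM and 1 held Ap1s2, and each had 2932 or more genes above 10 RPM. The folds over E18 without cells with markers of other classes were 0.57 at P2 and 2.00 at P5 for Azin1, and 2.14 and 2.86 for Ap1s2.

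The number of the 4 genes found in the same cell was counted next. The genes were chosen by level and share in these same type 2 cells, so higher counts in type 2 are a description. At P5, 14 of 19 type 2 cells (73.7%, 48.8 to 90.9%) held 3 or 4 of them above 10 RPM, against 1 of 34 type 1 cells (2.94%, 0.074 to 15.3%) and 3 of 22 type 3 cells (13.6%, 2.91 to 34.9%). At P2 this held for 15 of 31 type 2 cells (48.4%, 30.2 to 66.9%), 3 of 22 type 1 cells and 0 of 13 type 3 cells. With a limit of 3 cells for a count of 0, type 3 allows a share of up to 23.1%, and its exact interval is 0 to 24.7%. Of the E18 cells, 17 of 82 (20.7%, 12.6 to 31.1%) held 3 or 4. All 4 genes together were found in 6 type 2 cells at P5, in 2 at P2 and in 4 E18 cells, and in none of the 91 other cells of types 1 and 3. None of the 4 was found in 0 of 31 type 2 cells at P2 and 1 of 19 at P5, against 8 of 22 and 6 of 13 cells of types 1 and 3 at P2 and 10 of 34 and 2 of 22 at P5.

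The product of the 4 shares and the number of cells was 4.19 cells with all 4 genes in P2 type 2 and 4.83 in P5 type 2, beside the 2 and 6 cells counted, so no pairing of the genes within cells is read from these counts. Cells with 3 or 4 of the genes also had more genes above 10 RPM in type 2 (median 2575 against 2172.5 in the remaining cells at P2, and 2761.5 against 2616 at P5). The P5 type 2 cell with none of the 4 was the cell whose astrocyte markers summed to 175.2 RPM. Without the 5 cells with markers of other classes, 12 of 14 P5 type 2 cells held 3 or 4 genes and 6 held all 4. At E18, 12 of 70 cells did so without the cells with excitatory markers.

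**Figure D3:**
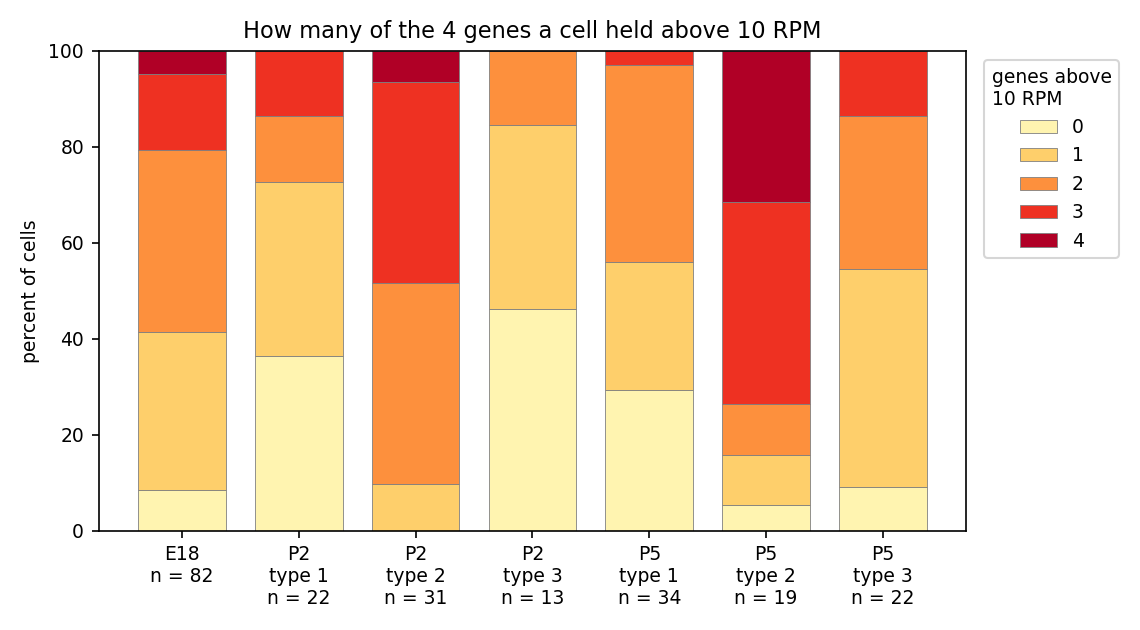
Percent of the cells of each age and type that held 0, 1, 2, 3 or 4 of the genes Ap1s2, AI593442, Azin1 and Mtpn above 10 RPM, with the number of cells under each bar. The darkest segment, all 4 genes, is largest in P5 type 2 (6 of 19 cells), and type 3 at P2 has no cell with 3 or more.

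Correlations between the levels of the 4 genes were weak within type 2 and differed in sign and size between the other groups. Over the 31 P2 type 2 cells, Pearson's r of log2(RPM + 1) for the 6 pairs ranged from -0.18 to 0.06, with a median of -0.06. Over the 19 P5 type 2 cells it ranged from 0.06 to 0.31, with a median of 0.26. In E18 cells the median was 0.03, and the medians of the 4 groups of types 1 and 3 ranged from -0.06 to 0.10. Single pairs there reached 0.55 (Ap1s2 and Azin1 over the 13 P2 type 3 cells), 0.48 (P2 type 1) and 0.38 (P5 type 3), above the highest type 2 pair, and fell to -0.34 (P5 type 3). For comparison, the median r of a member with the other genes found in at least 50% of P5 type 2 cells lay between -0.04 and 0.08, and the 90th percentile between 0.27 and 0.38. The median of the P5 type 2 pairs thus lies above the medians of single genes there. Cells of a group differed in depth and in the number of genes detected, which ran from 2165 to 4108 in P5 type 2. In P5 type 2, r of the members with that number was 0.15 for Ap1s2, -0.19 for AI593442, 0.11 for Azin1 and 0.14 for Mtpn. In P2 type 2 it ranged from -0.12 for Mtpn to 0.42 for Azin1, and at E18 from 0.03 for Ap1s2 to 0.52 for Azin1. A weak correlation in data in which most cells lie at 0 or far above it is no finding.

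Over the cells of all ages together, the genes whose levels were most like each member were other ones than the members. Among the 9357 genes that passed 10 RPM in over 5% of these cells, Ap1s2 was most like Igf1, an insulin-like growth factor (r = 0.37), Cnr1, the cannabinoid receptor CB1 (0.36), and Adarb2, an RNA editing enzyme homologue (0.35). The 99th percentile of r was 0.196 for Ap1s2, 0.21 for AI593442, 0.28 for Azin1 and 0.23 for Mtpn. Of the members, AI593442 took place 72 for Ap1s2 (r = 0.204) and Ap1s2 place 112 for AI593442. All other places of members were 491 or later. For AI593442, r was 0.31 with Vstm2a and 0.29 with 9630001P10Rik. Azin1 was most like Gapdh of glycolysis (0.43), Sdhb of the respiratory chain (0.42) and Sub1 (0.38). Mtpn was most like Ndufa8, also of the respiratory chain (0.35), Gm13456 (0.33) and Nap1l5 (0.33). These r also reflect the levels of the groups. With the group means taken out, r of the genes named here fell to between 0.20 and 0.34. The level of Azin1 also rose with the number of genes detected at E18 (r = 0.52) and in P2 type 2 (0.42). The part of detection in the r of Azin1 with other genes was not tested.

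Cnr1, which stood above the 4 genes in the choice, was above 10 RPM in 25 of 31 P2 type 2 cells and 19 of 19 at P5, at 3177 and 3737 RPM. Over type 2 cells, Ap1s2 tended to be higher where Cnr1 was, which is given as a description. In P2 type 2 cells with Cnr1 above 10 RPM, Ap1s2 was above 10 RPM in 15 of 25 at a pooled 295.0 RPM, and in the remaining cells in 2 of 6 at 8.50 RPM. The r of the 2 genes was 0.47 at P2 and 0.50 at P5 over type 2 cells. At E18, Ap1s2 stood at 93.4 RPM in the 43 cells with Cnr1 above 10 RPM, 14 of them above 10 RPM for Ap1s2, and at 12.0 RPM in the other 39, 6 of them above 10 RPM (r = 0.29). Azin1 showed the same direction in P2 type 2 cells (228.1 against 20.9 RPM) and E18 cells (200.8 against 121.3 RPM), with r of 0.24 and 0.17, but r was 0.01 in P5 type 2 cells. AI593442 stood at 311.1 against 205.8 RPM in P2 type 2 cells but at 59.7 against 83.7 at E18, and its r with Cnr1 was 0.06 and 0.09, and -0.03 in P5 type 2 cells. For Mtpn the P2 levels were 374.9 and 339.9 RPM, and r with Cnr1 was 0.08 at P2 and 0.45 at P5.

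Of the P5 type 2 cells, 7 held Meis2, a transcription factor gene that the study names for type 1, above 10 RPM. All 5 cells with markers of astrocytes, the oligodendrocyte lineage or excitatory neurons were among these 7, and none was among the other 12. Ap1s2 stood at 108.4 RPM in the 7 cells and at 417.7 in the 12, and was above 10 RPM in 4 and 10 of them. AI593442 stood at 254.5 and 131.7 RPM, Azin1 at 293.2 and 550.0 and Mtpn at 198.8 and 297.6. Only 2 cells with Meis2 were left without the 5 cells, each above 10 RPM for all 4 genes, with Ap1s2 at 232.7 RPM and Mtpn at 456.0. Meis2 and the markers of other classes can therefore not be told apart in these levels.

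Ap1s2 lies on the X chromosome, so its level was also read beside Xist, the RNA that coats the inactive X. In P2 type 2 cells Ap1s2 stood at 342.8 RPM in the 11 cells with Xist above 10 RPM and at 178.5 RPM in the other 20. It was above 10 RPM in 8 of 11 and 9 of 20 of these cells, with medians of 18.6 and 5.25 RPM. At E18 the levels were 70.2 RPM in 27 cells and 46.3 RPM in 55, and it was above 10 RPM in 5 and 15 cells. The direction of the share was thus not the same at the 2 ages. At P5, 18 of 19 type 2 cells held Xist above 10 RPM and no comparison was made. The share of cells with Xist was thus higher there than in P2 type 2 and E18 cells. Age and this share cannot be told apart in the level of Ap1s2 in P5 type 2 cells.

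Cells that share an SF label, whose meaning is not stated, are called a library pool here, and most pools gave the same direction. At P2 the fold of type 2 over types 1 and 3 was above 0 in 4 of 5 pools for Ap1s2 and AI593442 and in 5 of 5 for Azin1 and Mtpn. The exceptions were close to 0, at -0.02 for Ap1s2 and -0.04 for AI593442. Between pools the fold of Ap1s2 ranged up to 7.38, that of AI593442 up to 8.01 (in a pool where types 1 and 3 stood at 0.036 RPM), that of Azin1 from 0.90 to 4.92 and that of Mtpn from 1.16 to 4.49. At P5 it was above 0 in 5 of 6 pools for Ap1s2, AI593442 and Azin1 and in 4 of 6 for Mtpn. For the first 3 genes the exception was the pool labelled SF15, whose 1 type 2 cell is the one with none of the 4 genes. That cell stood at 0.11 RPM for Ap1s2 and at 0 for AI593442, Azin1 and Mtpn. The 4 other P5 cells of the pool, all of type 3, stood at 93.98 RPM for Ap1s2, 137.5 for AI593442, 6.03 for Azin1 and 60.1 for Mtpn. The log2 folds there were -6.42, -7.11, -2.81 and -5.93. Mtpn was also reversed in the pool of set B, described next. All of these cells were also in the choice, so the direction within pools is not independent of it.

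Library sets B, C and D held 2, 3 and 14 of the P5 type 2 cells. In set D the log2 folds were 2.96 for Ap1s2, 1.86 for AI593442, 3.36 for Azin1 and 2.31 for Mtpn. In set C they were 0.48, 4.83, 1.61 and 2.58, and in set B 3.41, 4.55, 2.36 and -5.16. Mtpn was thus reversed in set B, where its level was 0.67 RPM over 2 type 2 cells. Against E18 cells of the same set, the P5 type 2 folds of Ap1s2 were 2.02, 2.29 and 2.41 in sets B, C and D, those of AI593442 1.69, 1.53 and 0.94, and those of Azin1 2.39, 2.05 and 0.89. Mtpn stood at -6.69, 1.92 and 1.56. Except for Mtpn in set B, the direction against E18 was the same in each set.

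**Figure D4:**
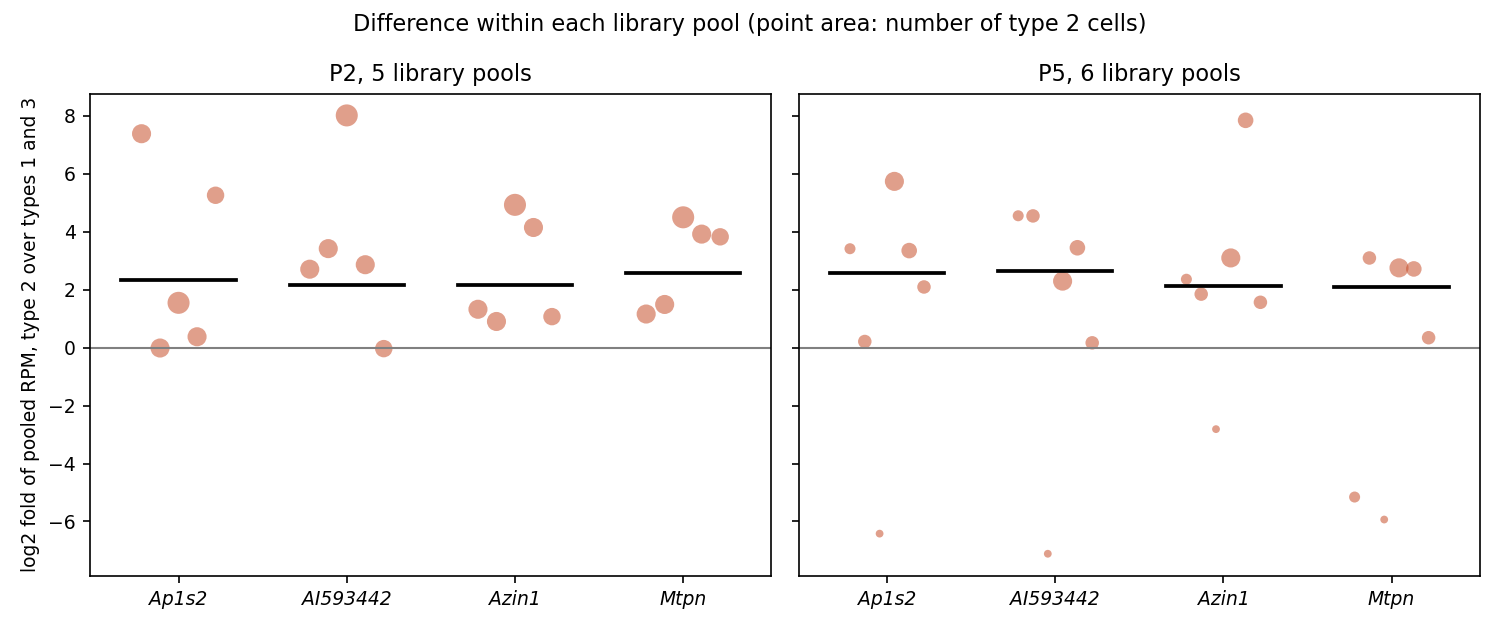
Log2 fold of pooled RPM of type 2 over types 1 and 3 within each library pool, at P2 (5 pools) and P5 (6 pools). The area of a point gives the number of type 2 cells in the pool, from 1 to 8, and the bar is the fold over all pools. Points lie above 0 except for 2 values just below it at P2 and, at P5, the pool with 1 type 2 cell and 1 further value of Mtpn.

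The number of genes detected was highest in type 2, so the folds were also taken over the cells within the range that both sides share. At P2 this left 13 type 2 and 27 other cells with 1491 to 2244 genes above 10 RPM. The folds were then 2.38 for Ap1s2, 0.98 for AI593442, 1.62 for Azin1 and 3.16 for Mtpn. At P5 it left 13 and 29 cells with 2165 to 3066 genes, and the folds were 2.61, 4.08, 1.87 and 2.18. The direction was kept in each case, while AI593442 at P2 fell under the 2-fold level. The medians of genes detected still differed, 1981 against 1795 at P2 and 2670 against 2378 at P5.

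The other genes of AP complexes and clathrin coats were counted beside Ap1s2. Of 37 such genes listed, 29 were tested at P2, where 10 were at least 2-fold higher in type 2 and 2 lower, with a median log2 fold of 0.62 against 0.19 over all genes tested, of which 28.1% were higher and 19.9% lower. At P5, 5 of 34 were higher and 4 lower, with a median of 0.33 against 0.03 and shares of 23.5% and 21.8% over all genes. At both ages 1 of 29 was higher, against 8.06% of all genes, namely Ap2m1, the medium subunit of the endocytic adaptor AP-2. Ap2m1 stood at 465.4 RPM in P2 type 2 (28 of 31 cells above 10 RPM) and 334.5 RPM at P5 (18 of 19), with folds of 1.88 and 1.03. Its E18 level was 449.7 RPM, and it was lowest in type 3, at 0.56 and 16.5 RPM. Without its highest type 2 cell the P5 fold was 0.91, under the 2-fold level. Without the highest type 1 or 3 cell, further genes were past 2-fold at both ages. Among them were Ap1b1 (3.31 and 1.46), Snap91 (1.58 and 2.36) and Picalm (1.03 and 1.33). The count at both ages thus depends on single cells, and the share over all genes was not computed in this way.

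Folds of the partners of Ap1s2 in AP-1 rested on few cells and are given with their range when the highest type 2 cell, or the highest type 1 or 3 cell, was left out. The large subunit Ap1b1 had log2 folds of 1.14 at P2 (0.66 to 3.31) and 0.68 at P5 (0.20 to 1.46), and the medium subunit Ap1m1 0.23 (-0.44 to 0.79) and 0.51 (-0.12 to 0.97). Ap1g1, the gamma subunit, named here after its values were seen, had folds of -0.79 (-1.83 to -0.12) and -1.33 (-2.28 to -0.44). Of the clathrin genes, the heavy chain Cltc had folds of 1.32 (0.85 to 2.50) and 0.58 (0.31 to 0.75), and Snap91, a neuronal clathrin assembly protein, 0.77 (0.46 to 1.58) and 2.02 (1.71 to 2.36).

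Ap1s1, a paralog of Ap1s2, was found in fewer type 2 cells. It was above 10 RPM in 10 of 31 at P2 and 5 of 19 at P5, at 40.2 and 12.9 RPM. Its P2 fold of -0.13 depended on 1 type 1 cell, which also carries markers of another class and held 99.8% of the type 1 count. Without that cell the fold was 1.30. Its P5 fold was -1.50, and -1.16 without the cells with markers of other classes. Per kilobase of exon, Ap1s2 was above Ap1s1 in type 2 (47.5 against 18.3 RPM at P2 and 61.4 against 5.88 at P5) and in type 3 at P5 (13.6 against 0.0026), and below it in type 1 at P5 (8.28 against 26.2). In types 1 and 3 at P2 Ap1s2 stood at 7.36 and 14.3 against 18 and 25.3 for Ap1s1, but without the highest cell of each at 2.99 and 9.18 against 0.032 and 0.40. The order in type 2 was thus also seen in other groups. At E18 the 2 genes stood at 10.9 and 11.3. Ap1s3 stood at 1.91 and 1.18 RPM in type 2.

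Of 19 genes of polyamine metabolism listed besides Azin1, 11 were tested at P2, where 2 were at least 2-fold higher in type 2 and 4 lower (median log2 fold -0.24 against 0.19 over all genes tested), and 14 at P5, where 4 were higher and 3 lower (median -0.01 against 0.03). Over all genes tested, 28.1% and 23.5% were higher at these ages and 19.9% and 21.8% lower. Higher at both ages were 2 of 10, against 8.06% of all genes, namely Sat1, the enzyme that acetylates spermidine and spermine (named after its values were seen), and Atp13a3, a transporter of polyamines. Sat1 and Atp13a3 rested on few cells. At P5 Sat1 was above 10 RPM in 2 of 19 type 2 cells and its fold turned from 6.88 to -1.09 without the 5 cells with markers of other classes. At P2 1 cell held 80.1% of the Atp13a3 count of type 2, and the fold turned from 1.07 to -1.13 without it.

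Odc1, the gene of ornithine decarboxylase itself, had folds below 0, unlike Azin1. It stood at 83.6 RPM in P2 type 2 against 209.6 and 145.6 in types 1 and 3, a fold of -1.19 that was -1.53 without the highest type 2 cell and -0.80 without the highest type 1 or 3 cell. At P5 it stood at 36.2 RPM against 60.6 and 33.6, a fold of -0.50. There 1 type 2 cell held 76.5% of the count, and the fold was -2.35 without it and -0.15 without the highest type 1 or 3 cell. Odc1 was also lower in type 2 than at E18 (132.1 RPM), with log2 folds of -0.65 and -1.84. Per kilobase, Azin1 was above Odc1 in type 2 at both ages (29.6 against 24.5 and 72.9 against 10.6) and below it at E18 (25.9 against 38.8). In types 1 and 3 at P2 Odc1 was above Azin1 (61.6 against 6.34 and 42.8 against 6.83), and in type 3 at P5 too (9.86 against 5.89). In type 1 at P5 Azin1 was above Odc1, as in type 2 (21.9 against 17.8). The antizyme gene Oaz1 had folds of 0.79 and 0.78. Those of Oaz2 were -1.11 and 1.66, but at P2 1 type 2 cell held 63.6% of its count and the fold was -2.40 without it and -0.05 without the highest type 1 or 3 cell, and at P5 it was 0.91 without the highest type 2 cell, which carries markers of another class. Azin2, the second antizyme inhibitor, stood at 0.99 RPM in P2 type 2 and 7.76 RPM at P5. P2 type 1 stood at 19.2 RPM with 3 of 22 cells above 10 RPM, and 1 cell at 332.7 RPM held 76.1% of the count of types 1 and 3 at P2.

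Of 21 genes of actin capping and turnover listed besides Mtpn, 4 of 18 tested at P2 were at least 2-fold higher in type 2 and 1 lower (median log2 fold -0.11 against 0.19), and 6 of 17 at P5 were higher and 2 lower (median 0.83 against 0.03). Of all genes tested, 28.1% and 23.5% were higher and 19.9% and 21.8% lower. None of 17 was higher at both ages, against 8.06% of all genes, and so none of the genes of the capping protein that myotrophin binds. This count depends on single cells. Without the highest type 1 or 3 cell, Twf1 (1.82 and 1.05), Pfn1 (1.07 and 1.72) and Capzb (1.05 and 2.17) were past 2-fold at both ages. The share over all genes was not computed in this way. Capza1 had folds of 1.07 at P2 and 0.29 at P5, Capza2 -0.64 and 0.85, and Capzb -0.11 and 1.08. Without the highest type 2 cell, Capza1 at P2 was at 0.39 and Capzb at P5 at 0.48, and without the highest type 1 or 3 cell they were at 2.54 and 2.17 and Capzb at P2 was at 1.05. Twf1, an actin monomer binding protein, had folds of 1.39 and 0.87 and was at 0.17 RPM in P2 type 3, the group in which Mtpn was also lowest. Dstn and Pfn2, both of actin monomer turnover, had folds of -0.16 and -0.38 at P2 and 1.56 and 1.08 at P5 (1.43 and 0.74 without the highest type 2 cell), and both were at their lowest in P5 type 3 (2.13 and 79.2 RPM). Actb, the actin gene itself, was above 10 RPM in every cell and had folds of 0.47 and 0.69.

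**Figure D5:**
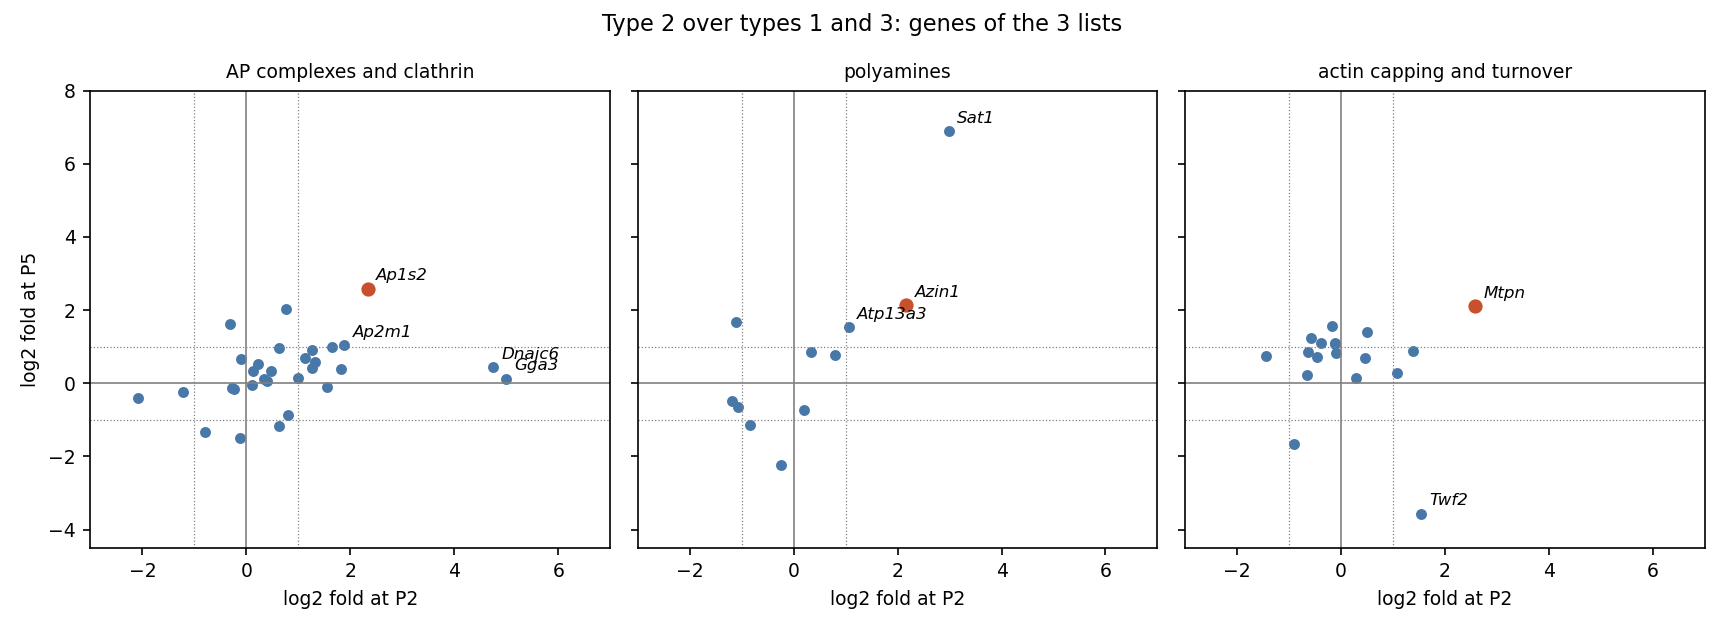
Log2 fold of type 2 over types 1 and 3 at P2 (horizontal) and P5 (vertical) for the genes of the 3 lists that were tested at both ages. Red points are Ap1s2, Azin1 and Mtpn, dotted lines mark 2-fold, and named blue points are past 2-fold up at both ages or past a log2 fold of 3. Besides the red points, the upper right field holds Ap2m1, Sat1 and Atp13a3.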

How the data were processed

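Single GFP+ cells were sorted from pooled cortices of each age, lysed and amplified on microfluidic chips and sequenced as read pairs. Per the methods of the study, the authors aligned the pairs to GRCm38 with TopHat2, counted them per Ensembl gene with HTSeq 0.6.1, removed cells of low quality and assigned the types from the same data. The deposited values are raw counts per gene and cell. Mapped read pairs were computed from the scaling coefficient that the labels give for each cell, and RPM is the count over mapped pairs times 1000000. A pooled level is the summed count over summed mapped pairs. A fold is the log2 of the quotient of 2 pooled levels after 1 RPM was added to both, which understates changes of low genes. Genes above 10 RPM in over 5% of the cells compared were tested, which here means compared by fold. No test between groups and no p-value was made, since each age is 1 pooled sample. Intervals (95%, exact Poisson or binomial) cover counting error only, since no molecular identifiers are stated and PCR copies are not independent molecules.

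The members and lists were chosen with earlier results of these data known. Named genes were the 4 members, Cnr1 and the 3 genes next below in the order, genes of the 3 pathway lists above 10 RPM in at least 25% of type 2 cells at either age, the paralogs and direct partners Ap1s1, Ap1s3, Azin2, Odc1, Oaz1 and Oaz2, and the 3 genes of highest r with each member. One of these is not reported here. Meis2 was used only to divide type 2 cells at P5. Folds of list genes without the highest cell of either side were added after seeing the data. A cell was said to hold markers of another class when 2 or more markers of 1 such class were above 10 RPM. Symbols were matched for 42462 of 43629 identifiers, and the 1167 without one held 0.313% of the count. Gene positions are from GENCODE M21 (GRCm38). Promoters were found for 3 of the 4 members. Scripts ran in Python 3.11.15 with numpy 2.4.6, pandas 2.3.3 and scipy 1.17.1 and were checked on simulated data. Alternative scalings used edgeR 4.0.16 and DESeq2 1.42.0 in R 4.3.3.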

Additional observations from a re-analysis of the deposited data

How the results depend on the processing

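No paired analysis was possible because no test was made and replicate numbers only name cells. Folds within library pools and sets, which the groups share, are given in their place. The direction of all 4 folds over types 1 and 3 was the same under every scaling, pseudocount and single cell left out, and was reversed only within a pool or set. Where a range moved, the cause was not tested. The lowest and highest fold of the 4 genes at P2 and at P5 was 2.01 to 2.45 and 1.78 to 2.33 with total count on genes, 1.97 to 2.41 and 2.04 to 2.59 with TMM factors, and 1.86 to 2.83 and 1.956 to 2.61 as mean RPM per cell. It was 2.68 to 3.98 and 2.68 to 3.52 as difference of mean log2(RPM + 1), and 1.95 to 2.43 and 1.95 to 2.39 with 10 RPM added. DESeq2 size factors gave 2.0 to 2.44 at P2. Without the highest type 2 cell it was 1.86 to 2.12 and 1.88 to 2.20, and without the highest type 1 or 3 cell 2.57 to 3.14 and 2.27 to 2.94.

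In single pools at P2 it spanned -0.036 (AI593442) to 8.01, with Ap1s2 at -0.015 in another pool. In single pools at P5 it spanned -7.11 (AI593442, with 1 type 2 cell) to 7.84 (Azin1). At P5 it was -5.16 (Mtpn, with 2 type 2 cells) to 4.55 in set B, 0.48 to 4.83 in set C and 1.86 to 3.36 in set D. Among alternatives chosen after seeing the data, it was 2.11 to 2.54 and 2.26 to 2.94 without cells with markers of another class, 0.98 to 3.16 and 1.87 to 4.08 in the shared range of genes detected, 1.86 to 2.66 and 1.73 to 4.4 over type 1 alone, and 1.72 to 7.07 and 1.38 to 3.59 over type 3 alone.

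Over E18, the range at P2 and P5 was 0.33 to 2.26 and 0.85 to 2.45 with total count on genes, 0.039 to 3.66 and 1.14 to 3.98 as difference of mean log2(RPM + 1), and 0.32 to 2.35 and 1.11 to 2.72 without the highest E18 cell. Chosen after seeing the data, it was -0.11 (Azin1) to 1.90 and 0.71 to 2.09 without the highest type 2 cell and 0.57 to 2.14 and 1.11 to 2.86 without cells with markers of another class. In sets B, C and D at P5 it was -6.69 (Mtpn) to 2.39, 1.53 to 2.29 and 0.89 to 2.41.

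Of all genes tested, 2364 at P2, 2271 at P5 and 624 at both ages were at least 2-fold higher in type 2, and 1668, 2110 and 376 lower. These counts were 428, 562 and 93 higher and 256, 338 and 35 lower with a 25% filter, 4487, 3645 and 1146 higher and 3260, 3558 and 779 lower with none, and 1593, 1564 and 323 higher and 1078, 1105 and 159 lower with 10 RPM added. The difference of mean log2(RPM + 1), which follows the number of cells with the gene, gave 1751, 2221 and 899 higher and 99, 162 and 11 lower. Of 112 alternative shares, 9 left the interval of their main value, all with the threshold at 1 or 50 RPM.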
